A study of Sorghum bicolor with 14 samples.

Results

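Sobic.004G004800, the vacuolar invertase of the sweet sorghum stem, was followed through the middle internode at 4 stages of development and at 3 soil moisture readings. It is 1 gene of 32752 named rows in the development table and 1 of 32726 in the drought table, and was found by its identifier. In both tables its row runs from base 418238 to base 423162 of chromosome 4 (4925 bases, coordinates as in the file, genome build not given in the sources used here), and no other row has that locus. The name vacuolar invertase comes from published work on this locus and not from the tables, which pair no identifier with a description. The plants were of 1 sweet sorghum (Sorghum bicolor) variety, CSV24SS, and all 14 samples were middle internodes, 2 in each of 7 groups. In the development series, plants in a nitrogen-fertilised, watered soil bed were taken at floral initiation (FI), booting (B, with the panicle still enclosed by the flag leaf sheath), and the milky stage (MS) and soft dough (SD) of grain filling. For the drought series, 1 plant was kept per pot, watering was stopped when the flag leaf appeared, and internodes were taken at booting when the meter read about 13% (D1), 7% (D2) and 2% (D3) soil moisture. Watered pots are not among the groups, so drying soil and days without water cannot be told apart, nor can a pot and a soil bed.

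Vacuolar invertase is an acid enzyme that splits sucrose inside the vacuole into glucose and fructose. In growing plant tissue the hexoses it releases raise the osmotic content of the vacuole and are linked to cell expansion. In storage tissue it draws on the same vacuolar sucrose pool that sweet sorghum and sugarcane stems fill as they ripen, and its activity in those stems is generally described as declining with maturity. Sucrose reaches the vacuole by tonoplast sugar transporters (TST), can be cleaved outside it by sucrose synthases and outside the cell by cell wall invertases, and is made by way of sucrose phosphate synthases.

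Expression is in FPKM (fragments scaled to transcript length and to sequencing depth), with a single deposited value for each gene and group. Since it stands for both samples of a group, combined in a way the sources used here do not state, replicate spread is unknown, no difference was tested, and higher or lower only orders a pair of values. Folds are ratios of FPKM. Log2 changes were taken after adding 1 FPKM to each value, which makes the changes of weak genes look smaller than their folds. Genes at or above 1 FPKM in some column of a table are called measured there, and a log2 change of 1 or more in size (2-fold) is called a difference. In counts and calls, past or within 2-fold refers to this log2 change, so a weak gene can lie within it and still have an FPKM ratio above 2. The tissue label was not checked, as no stem marker is annotated in the tables used here.

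Depth is not stated, but the lowest values carry a trace of it. For loci of 800 to 12000 bases, FPKM multiplied by the locus length in kilobases did not spread evenly down to 0. It stopped at a smallest step, between 0.0124 in B and 0.0170 in D2, with at most 6 values below it in any column; a locus without introns that holds 1 fragment would give such a step. The commonest value near that step corresponded to 1 fragment in 48900000 (D2) to 67000000 (B) on the authors' scale, both samples of a group together. This reading was made after the values were seen and assumes that such loci were counted in whole fragments.

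Vacuolar invertase was highest in the 2 middle stages of development and lowest in the drought pots. It stood at 2.32 FPKM in FI, 9.61 in B and 8.79 in MS, then 1.95 in SD. B and MS were the high pair, and FI and SD the low pair. In the drought columns it stood at 0.603 FPKM in D1, 0.0343 in D2 and 0.689 in D3, all below each stage of the soil bed, although levels from the 2 tables, taken as normalised separately, are only set side by side. From high to low the order was B, MS, FI, SD, D3, D1 and D2. Neighbours in that order lay close within 3 pairs: B was 1.09-fold above MS, FI 1.19-fold above SD and D3 1.14-fold above D1. Whether these pairs differ beyond the spread between samples cannot be said.

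**Figure D1:**
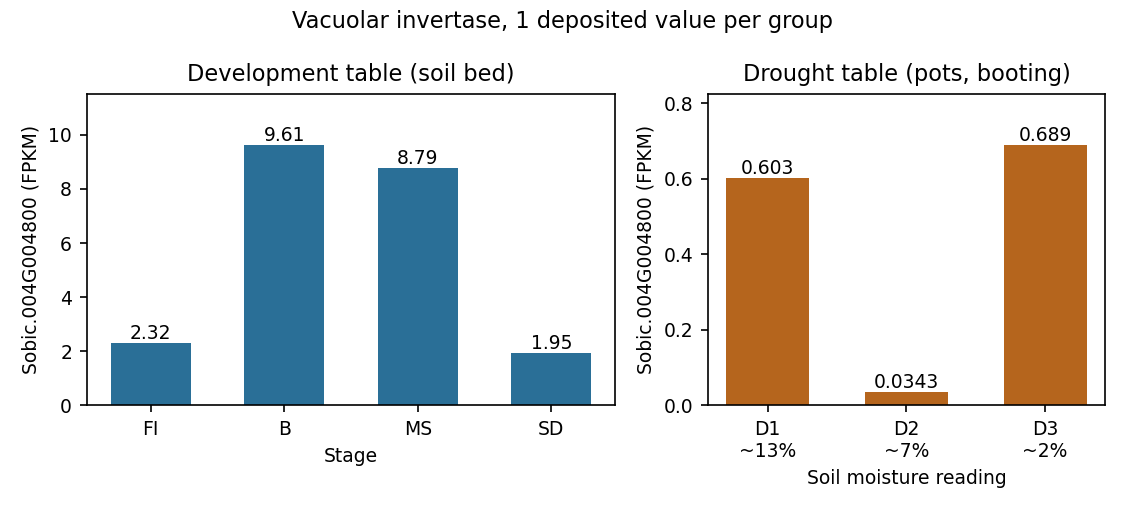
Bars give the deposited FPKM of Sobic.004G004800 in each group, on a linear axis from 0 that differs between the 2 panels (left, 4 stages; right, 3 soil moisture readings), with no error bars because each group has 1 value. B and MS stand at 9.61 and 8.79 FPKM against 2.32 and 1.95 at the ends, and D2 at 0.0343 lies below D1 and D3.

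By rank among all genes, too, B and MS were the high pair, while SD stood slightly above FI. In B it ranked 9038th of 32752 named rows from the top and in MS 9335th, against 14771st in FI and 14439th in SD. Among the rows at 1 FPKM or more, 42.5% lay below it in B and 41.0% in MS, but 12.6% in FI and 10.9% in SD. It was therefore a transcript of middling level at booting and a weak one at both ends of the series. Among the drought columns, 48.1% of all named rows lay below it in D1, 35.8% in D2 and 48.6% in D3, where 29.1%, 31.1% and 28.4% of rows were listed at 0.

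At booting compared with floral initiation, vacuolar invertase was 4.14-fold higher, at 9.61 and 2.32 FPKM (log2 change 1.68). It was one of 1696 among 18338 measured genes that were at least 2-fold higher (9.25%), while 3212 were at least 2-fold lower (17.5%). Its change in either direction was matched or exceeded by 11.7% of measured genes. The milky stage gave almost the same contrast with floral initiation, 3.79-fold higher (log2 change 1.56), where 9.07% of genes were higher. With a pseudocount of 5 FPKM both log2 changes, 0.997 and 0.914, fell short of 1.

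Between booting and the milky stage the 2 values lay within 2-fold (log2 change -0.12), and 79.5% of measured genes differed by at least as much. From the milky stage to soft dough it was 4.52-fold lower, at 8.79 and 1.95 FPKM (log2 change -1.73). Fewer genes were lower here than in any other of the 6 comparisons between stages, 783 or 4.27%, and 2.23% of all measured genes changed by as much as the invertase in either direction. Soft dough was 4.94-fold below booting (log2 change -1.85), where 9.65% of genes were at least 2-fold lower. Soft dough and floral initiation, the 2 ends, lay within 2-fold (log2 change -0.17). With a pseudocount of 5 FPKM the step from MS to SD gave -0.989 and fell short of 1, while SD against B still passed.

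The outline of the 4 values, a plateau over 2 stages between 2 low ends, was uncommon in this table. Only 136 of 18338 measured genes, 0.742%, had both B and MS at least 2-fold above both FI and SD, and vacuolar invertase was one of them, with a margin of 1.56 on the log2 scale. The outline was defined after its values were known, so this share is a description. Without a minimum margin, 3290 genes (17.9%) had both middle stages above both ends. The size of the swing was less unusual, since 18.3% of measured genes had a log2 range over the 4 stages at least as large as its 1.85.

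In the drying pots vacuolar invertase stayed under 1 FPKM in each column and so did not count as measured. It was 17.6-fold lower in D2 than in D1, at 0.0343 and 0.603 FPKM, and 20.1-fold higher in D3 than in D2, at 0.689 FPKM. On the log2(FPKM + 1) scale these were changes of -0.63 and 0.71, under the threshold, and 24.9% and 8.99% of measured genes changed by as much in either direction. With a pseudocount of 0.1 they were -2.39 and 2.55, past it, where 9.76% of measured genes were lower in D2 than in D1 and 6.26% higher in D3 than in D2. D3 and D1 differed by 0.07 on the log2 scale. With the pseudocount of 1, 6.25% of 16801 measured genes were at least 2-fold lower in D2 than in D1, 3.92% were higher in D3 than in D2, and 5.12% were higher in D3 than in D1.

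Few fragments stand behind these levels. The full length of the locus counts introns and so overstates the number of fragments. From it and the smallest step, the invertase held at most about 10 fragments in D2, 210 in D1 and 216 in D3. These ceilings are for both samples of a group and rest on the assumptions of the step reading given earlier. In the soil bed the same ceiling was 822 in FI, 3810 in B and 3159 in MS, then 762 in SD. At 10 fragments an exact 95% Poisson interval around the D2 value runs from 0.0165 to 0.0631 FPKM, and it is wider if fewer fragments were counted. It covers counting error only and says nothing of differences between plants.

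The low D2 value was rare among genes as weak as the invertase. Of 473 rows with D1 and D3 both from 0.5 up to 1 FPKM, 3 had a D2 value as low as 0.0343 FPKM (0.634%), the invertase included, and the median D2 value of these rows was 0.640 FPKM. This window was chosen after the values were seen.

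The soil bed plants of B and the pots were both sampled at booting by the described design, although the stage labels of the pots name only the drought stage. They stand in separate tables and also differ in pot and water, which cannot be told apart. Vacuolar invertase was at 9.61 FPKM in B, which is 15.9 times its level in D1 and 13.9 times that in D3. Against D2 the ratio was 280.0, or 152 to 584 over the counting interval of the D2 value alone, taken at 10 fragments. That range is wider if fewer fragments were counted. Of 11071 genes matched by name that reached 5 FPKM in B, 66 (0.596%) stayed under 1 FPKM in all 3 drought columns, and the invertase was one of them. Among the 1468 genes whose booting level was within 1.2-fold of its own, 15 did so (1.02%). Of the genes at 5 FPKM or more in B, 1.10% had a ratio of B to D1 at least as large or were listed at 0 in D1, and the shares for D2 and D3 were 0.199% and 1.15%.

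A list of 20 further genes of sucrose cleavage, synthesis and transport was set beside it. Identities rest on published gene names, and no sequence or description was at hand to check them. This holds most for Sobic.006G160700, listed as a second vacuolar invertase, and Sobic.004G166700, listed as a cell wall invertase, which are called the listed invertases here. Of the 20 genes, 17 were measured in the development table. The sucrose transporters SUT3, SUT5 and SUT6 stayed under 1 FPKM. In the drought columns 16 were measured, Sobic.006G160700 also staying under 1 FPKM.

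The listed cell wall invertase moved opposite to vacuolar invertase between consecutive groups, but not in every comparison. Sobic.004G166700 (chromosome 4, 51652244 to 51657175) was at 7.61 FPKM in FI, 0.787 in B and 15.9 in MS, then 31.1 in SD, so that it was lowest at booting, where vacuolar invertase was highest. It was 9.66-fold lower in B than in FI, 20.2-fold higher in MS than in B and 1.96-fold higher in SD than in MS. In the pots it was at 1.23 FPKM in D1, 6.54 in D2 and 1.57 in D3, highest where vacuolar invertase was lowest. D2 was 5.30-fold above D1 and 4.16-fold above D3, and with a pseudocount of 5 FPKM neither passed 2-fold on the log2 scale. In 5 of 5 consecutive steps of the 2 tables the 2 genes moved in opposite directions by any amount. Of 17760 matched genes at 1 FPKM or more in a stage, 3.98% also moved opposite to vacuolar invertase throughout. The listed cell wall invertase is 1 of 20 listed genes, and at that share 1 such gene in the list is unremarkable. Among the 5 steps is the log2 change of -0.12 of vacuolar invertase from B to MS, and its drought values were all under 1 FPKM. Between non-consecutive groups both were higher in MS than in FI, the listed cell wall invertase 2.09-fold, and both slightly higher in D3 than in D1.

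Sobic.006G160700 (chromosome 6, 51857640 to 51862605), the listed second vacuolar invertase, was a minor transcript. It was at 1.09 FPKM in FI, 0.375 in B and 0.240 in MS, then 0.485 in SD, below Sobic.004G004800 in each column and lowest in the 2 middle stages. In the pots it was at 0.130, 0.00873 and 0.0328 FPKM in D1, D2 and D3, also lowest in D2. FPKM is scaled to length, so levels of different genes may be set against each other within a column. Of the summed FPKM of the 3 listed invertases, Sobic.004G004800 made up 21.1% in FI, 89.2% in B and 35.3% in MS, then 5.80% in SD, against 30.7%, 0.521% and 30.0% in D1, D2 and D3. The sum itself was 11.01 FPKM in FI and 10.8 in B, and then 24.9 in MS and 33.6 in SD. Further invertase genes were not searched for, so these are shares of the 3 listed genes and not of all invertase transcript.

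**Figure D2:**
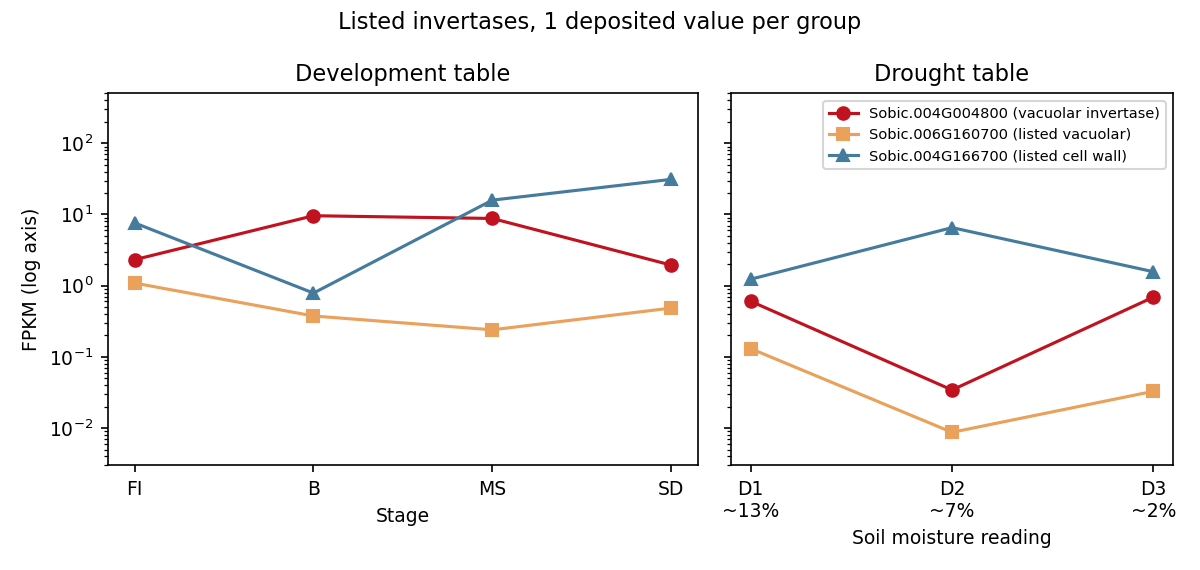
Points give the deposited FPKM of the 3 listed invertases on a log axis, by stage (left) and by soil moisture reading (right), with 1 value per group and no error. The line of Sobic.004G166700 lies above that of Sobic.004G004800 in every column but B, where the 2 stand at 0.787 and 9.61 FPKM.

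Sucrose synthases, which cleave sucrose in the cytosol in a reversible reaction, were far more abundant and did not share the plateau. Sobic.010G072300 was at 1242 FPKM in FI, 818 in B and 371 in MS, then 441 in SD, and Sobic.001G344500 at 388, 110, 74.5 and 119 FPKM. Both were highest in FI, where vacuolar invertase was low. Sobic.001G378300 was at 16.0, 20.7, 71.1 and 21.9 FPKM, highest in MS alone. The summed FPKM of the 3 was 710 times that of vacuolar invertase in FI, 98.8 times in B and 58.7 times in MS, then 299 times in SD. In the pots the same ratio was 1139 in D1 and 1200 in D3. In D2 it was 23913, or 13003 to 49867 over the counting interval of the invertase value at 10 fragments, and wider if fewer were counted.

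Sucrose phosphate synthases, which catalyse the step that commits carbon to sucrose, were not called different between stages. Their summed level over 5 genes was 42.1 FPKM in FI, 60.3 in B and 67.2 in MS, then 54.2 in SD, and 0 of 5 passed 2-fold on the log2 scale in any of the 6 comparisons. Over all measured genes, 4.27% to 17.5% passed in a given direction, depending on the comparison. Sobic.004G068400 was the most abundant, at 18.6, 30.1, 34.6 and 25.1 FPKM. It, Sobic.003G403300, at 10.7, 16.1, 17.3 and 13.5 FPKM, and Sobic.010G205100, at 6.59, 10.8, 10.99 and 9.60 FPKM, were higher in both middle stages than at either end, by less than 2-fold. Both middle stages lay above both ends in 17.9% of all measured genes. The other 2 sucrose phosphate synthases were weaker and had their highest value at an end. Sobic.005G089600 was at 1.35, 0.522, 0.723 and 0.435 FPKM, an FPKM ratio of 3.11 between FI and SD. Sobic.009G040900 was at 4.91, 2.73, 3.52 and 5.57 FPKM, a ratio of 2.04 between SD and B. The sum was 18.2 times the invertase level in FI, 6.28 times in B and 7.64 times in MS, then 27.9 times in SD. In the pots it was 70.8, 64.2 and 60.7 FPKM in D1, D2 and D3.

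The tonoplast sugar transporters load the vacuole in which the invertase works. TST1 (Sobic.001G312900) was at 177 FPKM in FI, 269 in B and 261 in MS, then 138 in SD, and TST2 (Sobic.004G099300) at 130, 237, 199 and 91.0 FPKM. For both genes B and MS lay above FI and SD, as for 17.9% of all measured genes, but not by the 2-fold margin of the invertase. TST2 was 2.60-fold lower in SD than in B and 2.18-fold lower than in MS, and TST1 stayed within 2-fold. Their sum was 132 times the invertase level in FI, 52.7 times in B and 52.4 times in MS, then 118 times in SD. The 2 genes parted from the invertase in the pots, where TST1 was at 191, 246 and 176 FPKM and TST2 at 111, 175 and 188 FPKM in D1, D2 and D3.

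Among sucrose carriers of the sucrose transporter family, SUT4 (Sobic.008G193300), a relative of the carrier that exports sucrose from the vacuole in rice, was at 164 FPKM in FI, 139 in B and 80.9 in MS, then 67.6 in SD. It was lower at each successive stage and so did not follow the invertase. SUT1 (Sobic.001G488700) was at 88.5, 120, 104 and 145 FPKM and SUT2 (Sobic.004G353600) at 21.5, 23.1, 32.9 and 36.9 FPKM, both highest in SD. In the pots SUT4 was at 355, 332 and 299 FPKM in D1, D2 and D3, above its level at each stage, with the 2 tables only set side by side. SUT2 was at 31.3, 23.3 and 22.2 FPKM in the pots. In the drought table the SUT1 row shares its locus with 10 other rows and its value there is uncertain. The SWEET genes, which release sugars across membranes, were both highest in B. Sobic.008G094000 was at 44.8, 210, 125 and 137 FPKM and Sobic.004G133500 at 16.6, 41.2, 22.2 and 24.7 FPKM. In the pots the 2 differed. Sobic.004G133500 was at 56.8, 18.4 and 39.6 FPKM, lowest in D2, and the more abundant Sobic.008G094000 at 180, 219 and 170 FPKM, highest in D2.

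Counted over the list without the invertase, 2 of 17 measured genes were at least 2-fold higher in B than in FI, 2 were lower and 13 lay within 2-fold, beside 9.25% higher and 17.5% lower over all genes. Of the 13, Sobic.006G160700 and Sobic.005G089600 had FPKM ratios of 2.90 and 2.60, lower in B, and with a pseudocount of 0.1 the lower count was 4. The list median was 0.35 beside 0.00 over all genes. From B to MS 2 were higher, 1 lower and 14 within (7.63% and 6.57% of all genes were higher and lower). From MS to SD 0 were higher, 2 lower and 15 within, while 6.47% of all genes were higher and 4.27% lower. The 2 lower ones were TST2 and the sucrose synthase Sobic.001G378300. Between MS and FI, 2 genes were higher and 3 lower, beside 9.07% higher and 16.6% lower over all genes. The counts between SD and FI were the same, beside 11.1% higher and 16.2% lower over all genes. Between SD and B, 1 was higher and 2 were lower, with 12.2% of all genes higher and 9.65% lower. In the pots 1 of 16 was higher and 1 lower at each step. Over all genes, 4.57% were higher and 6.25% lower in D2 than in D1. For D3 against D2 the shares were 3.92% higher and 0.905% lower. Between D3 and D1 each of the 16 was within 2-fold, where 5.12% of all genes were higher and 3.49% lower. The list median of the log2 changes stayed between -0.16 (SD against B) and 0.56 (MS against FI) in the stages and between -0.10 and -0.01 in the pots, while that of all genes stayed between -0.01 and 0.02.

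**Figure D3:**
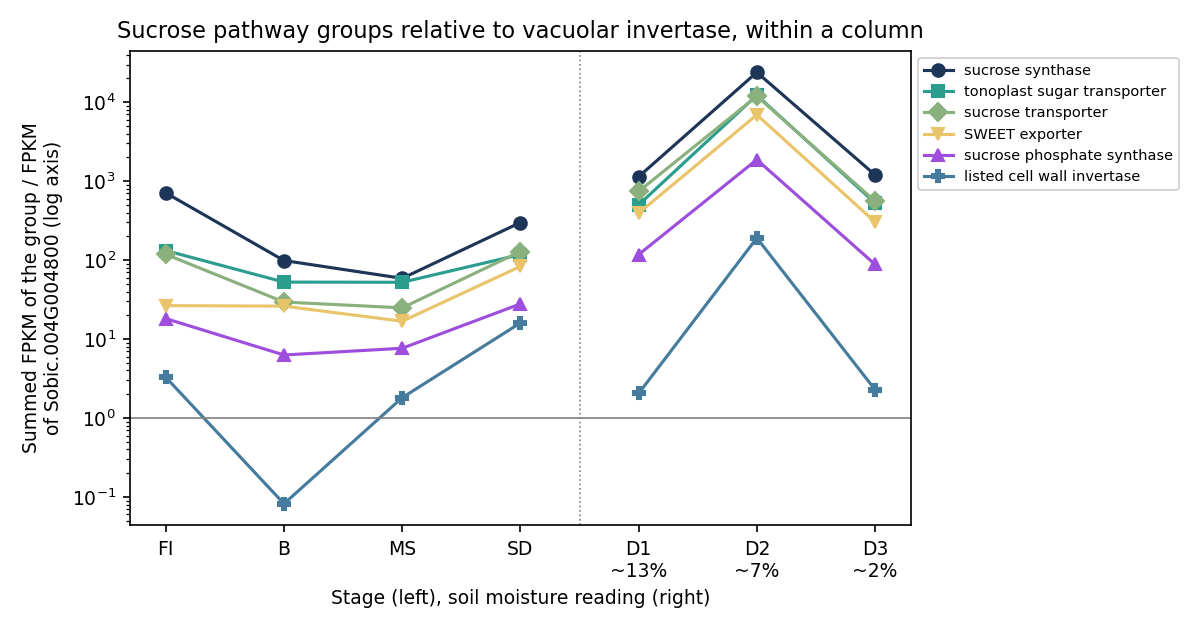
Each point is the summed FPKM of a group of listed genes divided by the FPKM of Sobic.004G004800 in the same column, on a log axis, with stages left of the dotted line and soil moisture readings right of it. Sucrose synthases stand between 58.7 times (MS) and 710 times (FI) the invertase in the stages. All 6 groups peak in D2, where their shared divisor, the invertase, is at 0.0343 FPKM. That value is 17.6-fold below D1 and 20.1-fold below D3 and rests on at most about 10 fragments. The common peak follows from this divisor and is not a result about the 6 groups.

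Likeness in pattern was measured over the 4 stages as the root mean square distance between mean-centred log2(FPKM + 1) profiles, among 10997 genes with a single name, a locus of their own and at least 5 FPKM in a stage. The 5 nearest lay within 0.1 of the invertase, and 16 lay within 0.2. They were Sobic.004G049400 (distance 0.0497; chromosome 4, 3987001 to 3987972), Sobic.006G147300 (0.0561; chromosome 6, 50872687 to 50876412), Sobic.006G251000 (0.0774; chromosome 6, 58958709 to 58971464), Sobic.001G379000 (0.0874; chromosome 1, 66727102 to 66730129) and Sobic.005G056400 (0.0935; chromosome 5, 5708499 to 5713071). With 4 points per gene, likeness of this kind is easily met, and 70 genes had Pearson's r of at least 0.99 with the invertase.

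The nearest gene, Sobic.004G049400, was at 20.0 FPKM in FI, 63.4 in B and 55.5 in MS, then 16.3 in SD, and Sobic.006G251000, the most abundant of the 5, at 63.1, 220, 192 and 64.4 FPKM. All 5 were more abundant than the invertase at each stage. In the pots all 5 stayed above 1 FPKM, unlike the invertase, and 4 of the 5 were lowest in D2, as it was. Staying above was the usual case, since 0.596% of genes at 5 FPKM or more in B were under 1 FPKM in all 3 drought columns. The share of all genes that were lowest in D2 was not counted, so the 4 of 5 cannot be weighed. Sobic.004G049400 was at 20.2, 3.84 and 10.05 FPKM in D1, D2 and D3, and Sobic.006G251000 at 217, 28.9 and 46.1 FPKM. The differences were smaller for Sobic.005G056400, at 23.0, 15.2 and 20.5 FPKM, and for Sobic.006G147300, at 96.6, 89.2 and 106 FPKM. Sobic.001G379000 was highest in D2, at 186 FPKM against 70.8 in D1 and 94.3 in D3. The choice of the 5 depended on the measure. Taking all 7 columns kept 2 of them, a pseudocount of 5 kept 0, and ranking by Pearson's r kept 0.

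**Figure D4:**
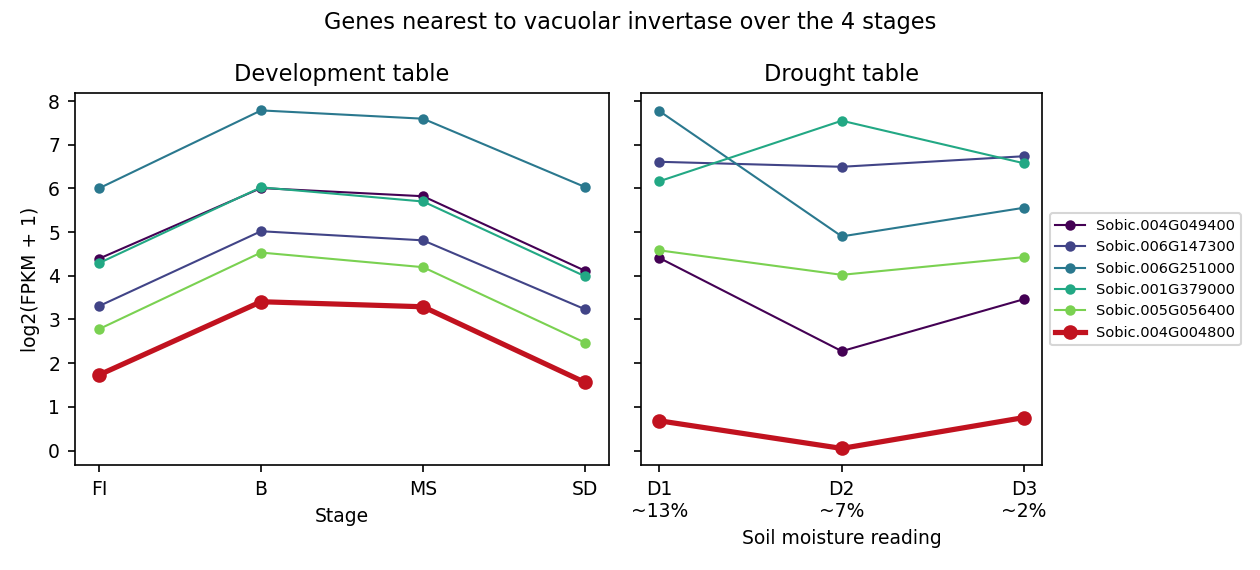
Lines give log2(FPKM + 1) of Sobic.004G004800 (thick red) and of the 5 genes nearest to it over the 4 stages (left), and of the same genes in the 3 soil moisture readings (right), with 1 value per group. The lines run parallel on the left, where the 5 were chosen, and on the right 5 of 5 lie above the invertase.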

How the data were processed

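Total RNA of 14 middle internodes was sequenced from stranded total RNA libraries, per the labels' protocols. The deposited values are FPKM, per the file headers. The authors' sheet holds a table of 4 stages and a table of 3 soil moisture readings, each with a single column for a group, which were taken as normalised separately. Tools named in the submitters' processing notes, with no role stated, are HISAT2 2.0.5, Bowtie2 2.2.9, cutadapt 1.8.1 and Cuffdiff. How samples were combined and the genome build are not given in the sources used here. There were 0 value columns left unused. Rows with no gene name (2003, development table) were left out.

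The planned limma fit needs a value per sample, so its stated fallback was used: values, ratios and differences of log2(FPKM + 1), called from an absolute log2 change of 1, with no test. Genes needed 1 FPKM in at least 1 column. Alternatives were quantile normalization, median ratio rescaling, pseudocounts of 0.1 and 5 FPKM, a filter on the mean (5 FPKM) and none. The text names the invertase, the listed pathway genes, the 5 genes most like it and the 3 rows on either side. The gene, lists and rules were chosen with earlier results of these data known. The step in low values, the window of weak genes and the count of genes high at booting but under 1 FPKM in pots were added after the values were seen. Members that gene descriptions or proteins were to supply were not added. The code was tested on simulated data. Python 3.11.15, pandas 2.3.3, numpy 2.4.6, scipy 1.17.1 and matplotlib 3.10.9 were used.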

Additional observations from a re-analysis of the deposited data

How the results depend on the processing

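The outline of vacuolar invertase over the 4 stages kept its direction for the 5 comparisons other than SD against FI under each scaling and pseudocount. SD against FI, a difference within 2-fold, changed from -0.17 to 0.11 after quantile normalization, which also moved the median log2 change of all genes by 0.11 for B against FI and for MS against FI. With a pseudocount of 5 FPKM, B against FI (0.997), SD against MS (-0.989) and MS against FI (0.914) fell short of 1, and with 0.1 FPKM the drought steps passed it (-2.39 for D2 against D1, 2.55 for D3 against D2). Both follow from how a pseudocount weighs low values. In the pathway list, a pseudocount of 0.1 gave 4 genes lower in B than in FI (2 as reported), 5 lower in SD than in FI (3), and 2 higher in SD than in B (1). A pseudocount of 5 gave 1 lower in SD than in B (2), 0 higher in D2 than in D1 (1), and 0 higher and 0 lower in D3 than in D2 (1 each). A mean of at least 5 FPKM gave 0 higher in D2 than in D1 and 0 lower in D3 than in D2. Counts over all genes moved by more than 1.5 times in 18 of 18 cases with a pseudocount of 5, in 8 with 0.1 and in 11 with the filter on the mean, and in 0 under either scaling. Leaving out the filter could not change a count, because a log2 change of 1 after adding 1 FPKM already requires at least 1 FPKM in the higher group. For the calls of the invertase, a pseudocount of 5 gave 877 genes higher in B and 913 higher in MS than in FI (1696 and 1664 as reported), and 362 lower in SD than in MS and 869 lower in SD than in B (783 and 1770). SD against MS had 1249 lower with 0.1 FPKM, and SD against B 1166 with the filter on the mean. Of the 5 genes most like the invertase, a pseudocount of 0.1 kept 4 and quantile normalization 3. Leaving out a sample could not be done, and limma was not run, because the authors give 1 value per group. No paired analysis was possible because the columns carry no replicate number. Without a value per sample, none of these differences can be set against variation between plants. By the step reading and its assumptions, the drought values of the invertase rest on at most about 216 fragments.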

Other observations

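None of the 3 rows on either side of vacuolar invertase on chromosome 4 had both middle stages at least 2-fold above both ends. Only 0.742% of all measured genes had that outline, so its absence from so few rows says little about the neighbourhood. Sobic.004G004900, which starts 91 bases beyond its end in the file's coordinates (423254 to 427809), was at 6.93 FPKM in FI, 12.7 in B and 7.20 in MS, then 8.03 in SD, within 2-fold in all 6 comparisons, and at 8.50, 8.39 and 9.03 FPKM in D1, D2 and D3. The next row, Sobic.004G005000, was highest in FI, at 20.8 FPKM against 6.24, 3.97 and 4.34 in B, MS and SD. On the other side Sobic.004G004600 was at 17.8, 19.5, 19.1 and 16.6 FPKM, with both middle stages slightly above both ends, while Sobic.004G004700 was listed at 0 in all 7 columns and Sobic.004G004500 stayed under 1 FPKM. The row of Sobic.004G005100 and Sobic.004G005200 was at 6.51, 10.1, 9.19 and 9.68 FPKM.

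Sobic.003G141800 (chromosome 3, 14045847 to 14048418), singled out after its values were seen, was close to the invertase over the stages and also under 1 FPKM in the pots. It was the nearest gene with a pseudocount of 5 FPKM and among the nearest 5 after quantile normalization. It was at 3.95 FPKM in FI, 12.3 in B and 11.7 in MS, then 3.87 in SD, and at 0.115, 0.216 and 0.328 FPKM in D1, D2 and D3, without the low value of the invertase in D2. Of 131 genes matched by name with both middle stages at least 2-fold above both ends, 4 stayed under 1 FPKM in all 3 drought columns (3.05%), the invertase and Sobic.003G141800 among them. The share of 0.596% given earlier is not a counterpart, since it covers only genes at 5 FPKM or more in B. No share over genes as weak as the 131 was counted, so the 3.05% cannot be weighed. The tables used here give Sobic.003G141800 no description.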
